A study of Mus musculus with 6 samples.

Results

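Neural lineage genes were examined in mouse embryonic stem cells (mESCs) cultured with LIF, with OSM or with neither cytokine. The group was fixed by symbol as 8 genes, Sox1, Pax6, Pax3, Sox21, Nes, Tubb3, Neurog2 and Dcx, and 7 of them have a row among the 28584 gene symbols of the expression table. Dcx, which encodes the microtubule-binding protein doublecortin of migrating young neurons, has no row and was not analysed here. The mESCs were derived from blastocysts of a C57BL/6 and 129S6 cross, and the labels name no engineered allele. They were first kept on mitomycin C-inactivated mouse embryonic fibroblast feeder cells in a medium that held serum and LIF. They were then passaged in 1 of 3 media, and poly-A RNA was sequenced at passage 10. LIF-ESCs received 1000 U/mL LIF, OSM-ESCs received OSM and -LIF-ESCs received neither, all in the same basic medium with serum. LIF was thus kept for LIF-ESCs and withdrawn from the others, so rises and falls given below compare media and not times. Each medium has 2 libraries, which the paper's figure legends call biological replicates without saying what was replicated. No library is tied to an animal or line of its own, so the spread between libraries may be that of cultures or of preparations. Expression is given in TPM (reads per transcript length, scaled to a common total per library), and between 20712941 and 28994417 reads per library could be recovered from the table.

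Neural fate in the embryo begins in the neural plate, whose progenitors carry SoxB factors such as Sox1, together with Pax factors that pattern them along the axes. Progenitors that leave the cycle pass through proneural factors such as Neurog2 and then build a neuronal cytoskeleton with beta-III tubulin and doublecortin. LIF and OSM both signal through receptors that contain gp130 and activate Stat3, and LIF is used to hold mESCs in self-renewal, whereas mESCs without it differentiate into mixed cell types. The comparisons below ask how neural genes stood in the cells without cytokine, and whether LIF and OSM differed.

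The members divided by direction. Sox1, Pax6 and Sox21 rose in both cytokine media against -LIF-ESCs by 6.72- to 11.7-fold in mean TPM. Nes stood lower in both cytokine media than in -LIF-ESCs, where its mean was 2.50-fold that of LIF-ESCs and 1.84-fold that of OSM-ESCs. Tubb3 stood 1.74-fold higher with LIF and 1.83-fold higher with OSM, and Pax3 and Neurog2 lay under 1 TPM in every library. Between OSM-ESCs and LIF-ESCs, no member passed both the adjusted p and the fold limit, and Nes passed the adjusted p alone. These are bulk samples, so fewer cells of a type and less RNA per cell cannot be told apart.

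**Figure D1:**
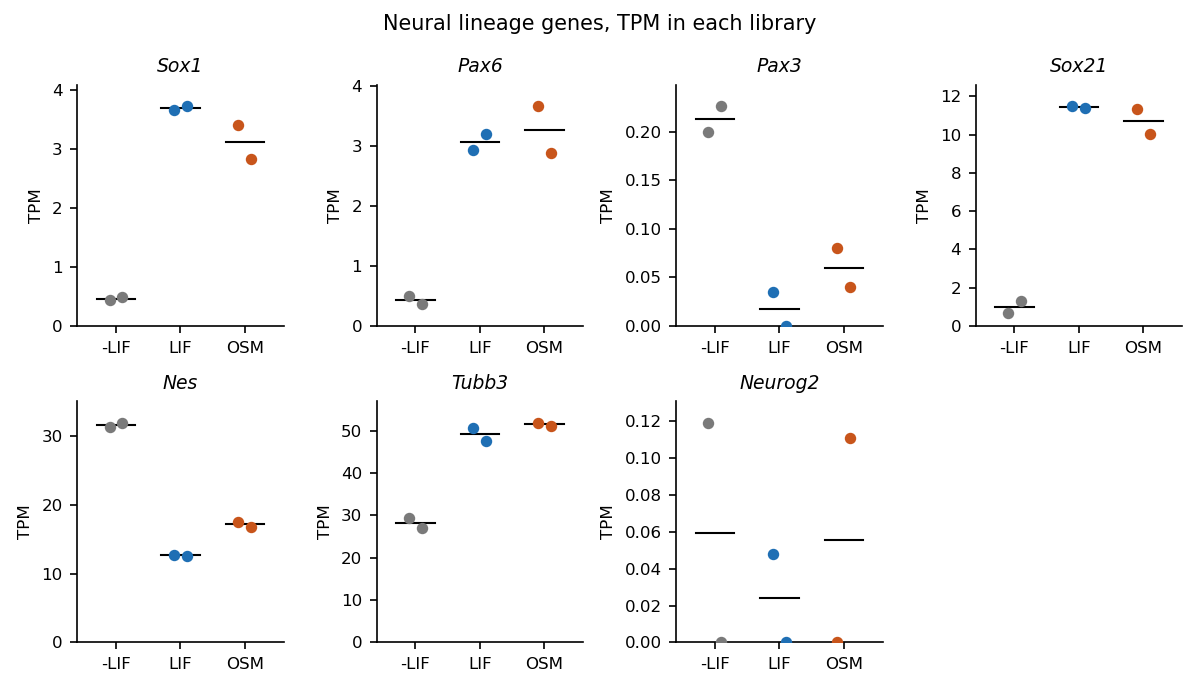
TPM of the 7 members with a row, with each library as a point, the mean of the 2 libraries as a black line and the 3 media along the horizontal axis; each panel has its own vertical axis from 0. Sox1, Pax6 and Sox21 sit low in the -LIF-ESCs, Nes is highest there, and Pax3 and Neurog2 never reach 1 TPM.

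The start regions of the members that carried these contrasts are shown first, from RefSeq on GRCm38.p6. Of the 8 members, 7 have a window of 250 bases before to 50 bases after a RefSeq start site, and Pax6 and Dcx have a pair each. The windows of 6 members hold more CpG dinucleotides than the median of 7 over 32851 mouse windows. They hold 37 in Sox1, 26 in Tubb3, 22 in Sox21, 18 in Nes, 18 and 16 in the pair of Pax6 and 10 in Neurog2, against 3 in each Dcx window. The bases upstream of the start are printed for Sox21, the largest log2 fold change among the 5 members fitted, for a Pax factor that moved with it and for the gene that moved the other way, with CpG dinucleotides in capitals.
Sox21 (chr14:118237031-118237280, minus strand): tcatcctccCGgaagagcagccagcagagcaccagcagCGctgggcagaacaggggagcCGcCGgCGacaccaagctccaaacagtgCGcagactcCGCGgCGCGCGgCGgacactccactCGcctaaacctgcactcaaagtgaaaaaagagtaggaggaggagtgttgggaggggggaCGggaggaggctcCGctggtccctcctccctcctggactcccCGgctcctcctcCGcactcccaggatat
Pax6 (chr2:105668646-105668895, plus strand): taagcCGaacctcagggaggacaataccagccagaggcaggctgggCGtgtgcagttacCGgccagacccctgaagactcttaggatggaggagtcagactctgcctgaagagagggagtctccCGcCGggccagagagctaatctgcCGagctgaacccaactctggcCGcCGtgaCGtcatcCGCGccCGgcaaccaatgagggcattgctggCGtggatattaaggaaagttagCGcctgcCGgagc
Nes (chr3:87970843-87971092, plus strand): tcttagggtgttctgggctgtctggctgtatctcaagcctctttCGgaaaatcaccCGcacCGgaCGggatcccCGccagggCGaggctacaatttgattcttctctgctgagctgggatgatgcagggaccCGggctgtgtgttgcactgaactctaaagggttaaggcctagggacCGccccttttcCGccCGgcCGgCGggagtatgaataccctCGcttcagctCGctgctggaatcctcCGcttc
These stretches hold 17, 15 and 15 CpG dinucleotides, so the gene that was lower with cytokine and the Pax gene that was higher have the same number.

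On both strands, 5 motifs were searched in the windows, and no overlap between motifs was found. CAGATG, an E-box of proneural factors, is in 17.2% of all windows, TTCNNNGAA, the palindrome of Stat3, is in 8.3%, and neither is in a window of a member. TGGGAA, the motif of Rbpj, is in 25.6% of all windows and in that of Sox1, on the minus strand from position +42. AACAAT, a core of Sox sites, is in 10.7% of all windows and in that of Neurog2, on the minus strand from position -45. ATGCAAAT, the octamer of POU factors such as Oct4, is in 1.74% of all windows and in that of Sox1 from position +19. It is printed in capitals with its flanks, because Sox1 is among the members that rose.
Sox1 (chr8:12395525-12395554, plus strand): cgccagcgcgccATGCAAATcaccgccgcc
The octamer lies downstream of the RefSeq start, and by GENCODE the Sox1 transcript starts 224 bases upstream of that start. It is therefore downstream of both starts, inside the exon annotated by GENCODE. A match of letters is a description and not a measured site, and no factor binding was measured here.

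Sox1, a SoxB1 transcription factor and one of the earliest genes of the neural plate, is a gene with 1 exon on mouse chromosome 8 (chr8:12395295-12400126, plus strand). It stood at 0.439 and 0.489 TPM without cytokine, at 3.66 and 3.72 TPM with LIF and at 3.40 and 2.83 TPM with OSM. Both -LIF-ESC libraries lay below all 4 cytokine libraries, and the LIF-ESC libraries lay above the OSM-ESC libraries. The level rested on 24 and 22 recovered reads without cytokine, and on 162 to 166 reads in the cytokine libraries. A fit across all 18556 genes tested (limma on log2 of TPM plus 1, with p adjusted by Benjamini-Hochberg) gave a log2 fold change of 1.68 ± 0.12 (SE, adjusted p = 0.000138) with LIF and of 1.49 ± 0.12 (adjusted p = 0.000212) with OSM. OSM-ESCs and LIF-ESCs differed by -0.19, with a 95% interval of -0.49 to 0.11 (limma, adjusted p = 0.519). Gm25239, a miRNA gene model, shares 86 exon bases with Sox1 on the same strand, and how shared reads were assigned is not given in the sources used here.

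Sox21, a SoxB2 factor that counters SoxB1 activity and favours neuronal differentiation in progenitors, lies at chr14:118233232-118237030 on the minus strand. Its TPM was 0.651 and 1.30 without cytokine, 11.5 and 11.4 with LIF and 11.4 and 10.0 with OSM. The -LIF-ESC libraries differed between themselves more than in any other called member, but neither came near a cytokine library. Among the 5 members that entered the fit Sox21 had the largest log2 fold changes, with a mean TPM 11.7-fold higher with LIF and 11.0-fold higher with OSM. The log2 fold changes were 2.67 ± 0.17 (SE, limma adjusted p = 9.45e-05) and 2.58 ± 0.17 (adjusted p = 0.000104), and OSM-ESCs differed from LIF-ESCs by -0.09 (95% interval -0.52 to 0.34, adjusted p = 0.852). A long noncoding gene on the other strand, Gm4675, shares 713 exon bases with Sox21. Since the strand setting of the count is not given in the sources used here, reads of the pair cannot be told apart over those bases. Gm4675 itself stood at 0.432 and 0.806 TPM without cytokine, at 3.82 and 3.80 TPM with LIF and at 4.20 and 3.63 TPM with OSM, the same order of groups with and without cytokine.

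Pax6, a paired-box factor of the forebrain, eye and dorsal neural tube, lies at chr2:105668900-105697364 on the plus strand. It stood at 0.506 and 0.368 TPM without cytokine, at 2.93 and 3.20 TPM with LIF and at 3.66 and 2.88 TPM with OSM. The OSM-ESC libraries enclosed both LIF-ESC libraries, and the -LIF-ESC libraries lay below all of them. The log2 fold change was 1.50 ± 0.14 (SE, limma adjusted p = 0.000386) with LIF and 1.57 ± 0.14 (adjusted p = 0.000324) with OSM, or 7.02-fold and 7.49-fold in mean TPM. The media with cytokine differed by 0.07 (95% interval -0.29 to 0.42, adjusted p = 0.869), a range that leaves room for differences in either direction. Sox1, Pax6 and Sox21 entered the test only because their cytokine libraries reached 1 TPM, which 1 -LIF-ESC library of Sox21 and none of the others did, so their passing the filter and their direction are not independent. By level, both were near the middle of the table with cytokine, where between 51.1% and 53.3% of symbols had a lower mean TPM, and lower without it, where 32.5% of symbols lay below Sox1 and 31.9% below Pax6.

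Nes encodes nestin, an intermediate filament protein of neural progenitors that many other dividing and mesenchymal cells also carry, and lies at chr3:87971078-87980451 on the plus strand. Its TPM was 31.3 and 31.9 without cytokine, 12.7 and 12.6 with LIF and 17.5 and 16.8 with OSM. The 3 media did not overlap, with -LIF-ESCs highest, OSM-ESCs between and LIF-ESCs lowest. Nes fell by 1.26 on the log2 scale with LIF (SE 0.05, limma adjusted p = 2.18e-05), past the fold limit of 1, and by 0.84 with OSM (95% interval -0.97 to -0.72, adjusted p = 6.79e-05), which is short of it. OSM-ESCs exceeded LIF-ESCs by 0.41 (95% interval 0.29 to 0.54, limma adjusted p = 0.0492), or 1.36-fold in mean TPM, and both OSM-ESC libraries lay above both LIF-ESC libraries. That adjusted p is at the edge of the threshold and ran from 2.89e-05 to 0.267 over 15 alternatives, in 4 of which it was under 0.05. Vim, which encodes vimentin, an intermediate filament protein that pairs with nestin in filaments, was the 1 gene among 57 other neural genes tested to pass the adjusted p between OSM and LIF. It stood at 139.0 and 135.2 TPM without cytokine, at 192.1 and 193.5 TPM with LIF and at 266.1 and 267.2 TPM with OSM, with a log2 difference of 0.47 between OSM and LIF (limma adjusted p = 0.0256). Vim and Nes therefore shared the direction between OSM and LIF but not the direction against -LIF-ESCs.

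Tubb3 encodes beta-III tubulin, the tubulin of neuronal microtubules, and lies at chr8:123411424-123422015 on the plus strand. It was the member with the highest TPM in the cytokine media, at 50.7 and 47.5 with LIF and 51.8 and 51.2 with OSM, against 29.4 and 27.0 without cytokine. All 4 cytokine libraries lay above the -LIF-ESC libraries, and the OSM-ESC libraries lay just above the LIF-ESC libraries. The log2 fold changes of 0.78 (95% interval 0.63 to 0.93, limma adjusted p = 0.000168) and 0.85 (0.70 to 1.00, adjusted p = 0.000124) passed the adjusted p but not the fold limit. OSM-ESCs differed from LIF-ESCs by 0.07 (95% interval -0.08 to 0.22, limma adjusted p = 0.643). By level per transcript, Tubb3 stood above 88.4% of symbols with LIF and above 83.4% without cytokine, so a neuronal tubulin transcript was well expressed in all 3 media.

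Pax3, a paired-box factor of the dorsal neural tube, neural crest and dermomyotome (chr1:78101267-78197134, minus strand), was too low for the fit. It stood at 0.200 and 0.226 TPM without cytokine (14 and 13 reads), at 0.0345 and 0 TPM with LIF (2 and 0 reads) and at 0.0800 and 0.0400 TPM with OSM (5 and 3 reads). The order of groups was that of Nes, and no -LIF-ESC library overlapped a cytokine library. Scaled to the reads of each group, the 27 reads of -LIF-ESCs were 13.2-fold the 2 reads of LIF-ESCs, with a 95% counting interval of 3.32 to 115, and 3.99-fold the 8 reads of OSM-ESCs (1.76 to 10.2). OSM-ESCs stood 3.32-fold over LIF-ESCs with an interval of 0.662 to 32.1, so a difference between them was not detectable at this depth. Limma voom on the recovered reads without a filter, an alternative chosen after the data were seen, gave log2 fold changes of -3.59 (adjusted p = 0.000611) with LIF and -1.91 (adjusted p = 0.0199) with OSM. The planned limma fit of log2(TPM + 1) without a filter gave -0.25 (adjusted p = 0.0447) with LIF and -0.19 with OSM, which did not pass (adjusted p = 0.0968). The other genes of the neural crest moved in both directions, as given below.

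Neurog2, a proneural basic helix-loop-helix factor (chr3:127633135-127635631, plus strand), had 3 and 0 reads without cytokine, 1 and 0 with LIF and 0 and 3 with OSM. Its highest TPM in a library was 0.119, and each group held a library at 0. With at most 3 reads in a group, which is the limit that a count of 0 allows, no fold is given and no difference was detectable at this depth. Intervals and limits of reads cover counting error only.

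**Figure D2:**
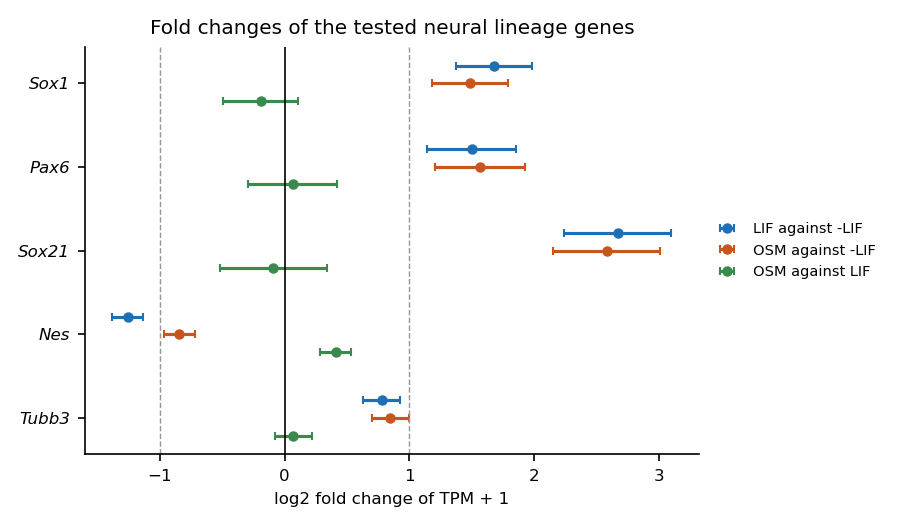
Log2 fold change of TPM plus 1 for the 5 members that entered the fit (points) with 95% intervals from limma (bars), for LIF against -LIF, OSM against -LIF and OSM against LIF; dashed lines mark the fold limit of 1 in either direction. Intervals of Sox1, Pax6 and Sox21 lie beyond 1 for both cytokines, and in the comparison of OSM with LIF the interval of Nes, from 0.29 to 0.54, is the one that excludes 0.

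A gene is called here when its adjusted p is under 0.05 and its log2 fold change is at least 1 in size. With LIF against -LIF, 3 members were called higher and 1 lower, beside 13.3% of all genes tested called higher and 8.09% called lower. With OSM against -LIF, 3 members were called higher and 0 lower, beside 14.2% and 7.86%. By the adjusted p alone, 4 members were higher and 1 lower in either comparison, where 42.2% of genes were higher and 25.9% lower with LIF, and 42.9% and 25.4% with OSM. Between OSM and LIF, 0 members were called, beside 0.0323% of genes called higher and 0.0485% lower by limma. By the adjusted p alone 1 member, Nes, was higher, beside 0.463% of genes. TPM are shares of each library, and over all genes tested the log2 fold change had a median of 0.17 with LIF and 0.18 with OSM. It came to 0.01 in both after rescaling by the median ratio. The rescaled background was 10.5% higher and 10.3% lower with LIF, and 11.1% and 10.3% with OSM. Rescaled, Nes was also called lower with OSM, at -1.02, and the 4 members that were higher kept their direction.

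Among the other genes of neural development, 90 were listed in 6 lists by role, and 57 of them entered the fit. With LIF, 15 were called higher and 11 lower, and with OSM the counts were again 15 and 11, which left 31 not called in each comparison. The median log2 fold change was 0.13 with LIF and 0.21 with OSM, against 0.17 and 0.18 over all genes. The called genes were 26.3% of the 57 higher and 19.3% lower with either cytokine, beside 13.3% and 8.09% of all genes with LIF and 14.2% and 7.86% with OSM. With rescaling, 13 were called higher and 14 lower with LIF, and 15 and 12 with OSM. A listed gene that is under 1 TPM in 1 medium enters the fit only through the other media, so these counts describe the genes and do not measure the lists.

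The neural plate and progenitor factors had 4 of 10 tested genes called higher and 0 lower with either cytokine, with median log2 fold changes of 0.79 and 0.77. Olig2, a factor of ventral progenitors that give rise to motor neurons and oligodendrocytes, stood at 0.0362 and 0.0441 TPM without cytokine, at 19.6 and 19.5 TPM with LIF and at 23.7 and 21.0 TPM with OSM. Its log2 fold changes were 4.31 with LIF and 4.49 with OSM (limma adjusted p = 3.56e-06 and 2.92e-06). Emx2, a dorsal forebrain factor, rose by 1.42 and 1.75 and Zic1, a zinc finger factor of the neural plate border, by 1.41 and 1.52 on the log2 scale. By the adjusted p alone, 6 of the 10 were higher with LIF and 8 with OSM, and 1, Sox3, was lower with either. Sox3 stood at 10.8 and 9.84 TPM without cytokine, at 6.56 and 6.01 TPM with LIF and at 5.13 and 5.35 TPM with OSM. Its log2 fold changes were -0.64 and -0.86 (limma adjusted p = 0.00131 and 0.000419), short of the fold limit. Hes5, a Notch target of progenitors, was listed at 0 in both LIF-ESC libraries and stayed under 1 TPM elsewhere.

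Among neural stem cell and radial glia genes, 2 of 8 tested were called higher and 1 lower with either cytokine, with medians of 0.24 and 0.42. Ncam1, a neural cell adhesion molecule, rose by 1.85 with LIF and 1.97 with OSM, and Ptn, a secreted growth factor, rose by 1.09 and 1.56. Prom1, a membrane protein of apical protrusions in neural and other epithelia, stood at 11.0 and 12.8 TPM without cytokine, at 2.05 and 2.05 TPM with LIF and at 2.29 and 1.90 TPM with OSM. It fell by 2.08 with LIF and 2.06 with OSM on the log2 scale (limma adjusted p = 5.92e-05 and 5.91e-05).

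The proneural factors and their early targets, the list nearest to Neurog2, had 1 of 6 tested genes called higher and 2 lower with either cytokine, with medians of -0.14 and -0.02. Insm1, a zinc finger factor of newborn neurons and endocrine cells, rose by 3.08 and 3.09. Neurog3, a relative of Neurog2 best known from the endocrine pancreas, fell by 1.95 and 2.14, and Dll3, a Notch pathway ligand of the presomitic mesoderm and of newborn neurons, fell by 1.49 and 1.64. Members of this list therefore moved in both directions.

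Neuron genes had 4 of 17 tested called higher with either cytokine and 2 lower with LIF and 3 lower with OSM, with medians of 0.11 and -0.02. The neurofilament-type protein internexin, Ina, stood at 13.8 and 13.7 TPM without cytokine, at 64.3 and 65.5 TPM with LIF and at 63.8 and 62.9 TPM with OSM. Dpysl3, a cytoskeletal regulator of growth cones, rose in both comparisons by 1.31 and 1.59, Mapt, which encodes tau, by 1.42 and 1.27, and Nefl, the light neurofilament, by 1.12 and 1.58. Syt1, a calcium sensor of synaptic vesicles, had log2 fold changes of -1.38 and -1.22 and Sox11, a factor of young neurons and of many embryonic progenitors, of -1.21 and -1.11, while Syp, a synaptic vesicle protein, fell by 1.03 with OSM. Map2, a microtubule-associated protein of dendrites, differed by -0.37 with LIF and -0.23 with OSM and was not called, nor was the synaptic vesicle gene Syn1, at -0.20 and -0.25. Snap25, a synaptic protein of mature neurons, stayed between 0.0971 and 0.182 TPM in the 6 libraries, and Rbfox3, the neuronal nuclear antigen, stood at 1.08 and 1.13 TPM without cytokine and at 0.324 to 0.544 TPM with it. Dclk2, which encodes a kinase related to doublecortin, stood between 3.36 and 4.61 TPM in the 6 libraries.

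Neural crest genes had 3 of 11 tested called higher with either cytokine, and 5 lower with LIF and 4 lower with OSM, with medians of -0.43 and -0.06. Those called higher were Snai2 (2.26 and 2.57), Twist1 (2.00 and 2.25) and Foxd3 (1.96 and 2.02). Snai2 and Twist1 also act in mesenchymal cells and fibroblasts, and Foxd3 also acts in pluripotent cells. Levels of the markers of both cell types are given with the marker lists. Erbb3, a receptor of migrating crest and of epithelia, fell by 1.87 and 2.09, Msx2, a homeobox factor of the neural border, had log2 fold changes of -1.86 and -1.37, and Tfap2a, a factor of crest and surface ectoderm, of -1.53 and -1.13. Sox10, the factor that defines migrating crest, was low but called lower with both cytokines, at 1.88 and 1.83 TPM without cytokine and 0.327 to 0.422 TPM with it, with log2 fold changes of -1.06 and -1.02. Among glial genes, 1 of 5 tested was called higher and 1 lower with either cytokine, with medians of 0.33 and 0.30. Olig1, the partner of Olig2, rose by 4.17 and 4.10 from 0.490 and 0.149 TPM without cytokine to 23.3 and 22.0 with LIF and 21.2 and 21.7 with OSM. Aldh1l1, a folate enzyme of astrocytes, fell by 1.13 and 1.20, and Gfap, the astrocyte filament, stayed at or under 0.421 TPM.

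**Figure D3:**
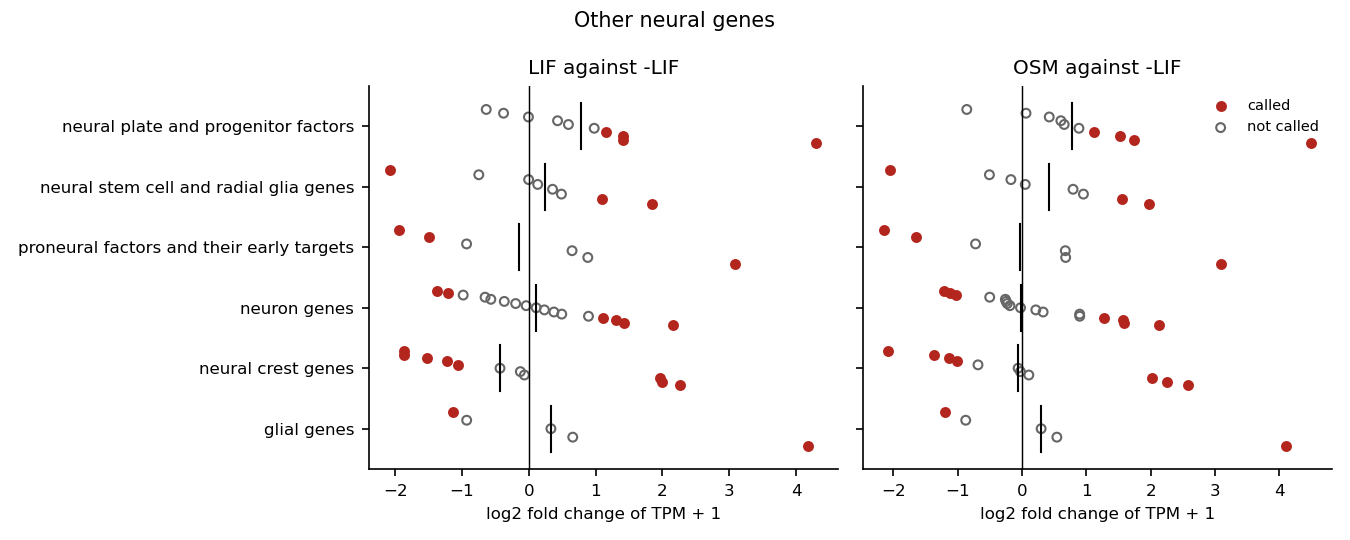
Log2 fold change of TPM plus 1 for the 57 other neural genes tested, by list, with LIF against -LIF on the left and OSM against -LIF on the right; filled points are called genes, open points are not called and black lines are list medians. Called genes lie on both sides of 0 in every list except the neural plate and progenitor factors, where the 4 called genes are higher with cytokine.

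Factors that restrain neural genes moved in different directions. Rest, a repressor of neuronal genes outside neurons, stood at 46.8 and 47.9 TPM without cytokine, at 178.5 and 169.9 TPM with LIF and at 170.1 and 153.8 TPM with OSM. It rose by 1.86 with LIF and 1.75 with OSM (limma adjusted p = 1.16e-05 and 1.33e-05), while its corepressor Rcor1 differed by -0.09 and -0.02 and was not called. The Id genes encode inhibitors of basic helix-loop-helix factors such as Neurog2. Id1 fell by 1.23 with LIF and differed by -0.98 with OSM, short of the fold limit, and Id2 fell by 1.16 and 1.14. Id3 rose by 1.01 with OSM and differed by 0.55 with LIF, and OSM and LIF differed by 0.46 for it, which did not pass (limma adjusted p = 0.121). Id4 differed by 0.24 and 0.28 and was not called. Hes1, a Notch target that represses proneural genes, fell by 1.03 with OSM and differed by -0.82 with LIF. Of the 7 inhibitors, 0 were called between OSM and LIF.

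**Figure D4:**
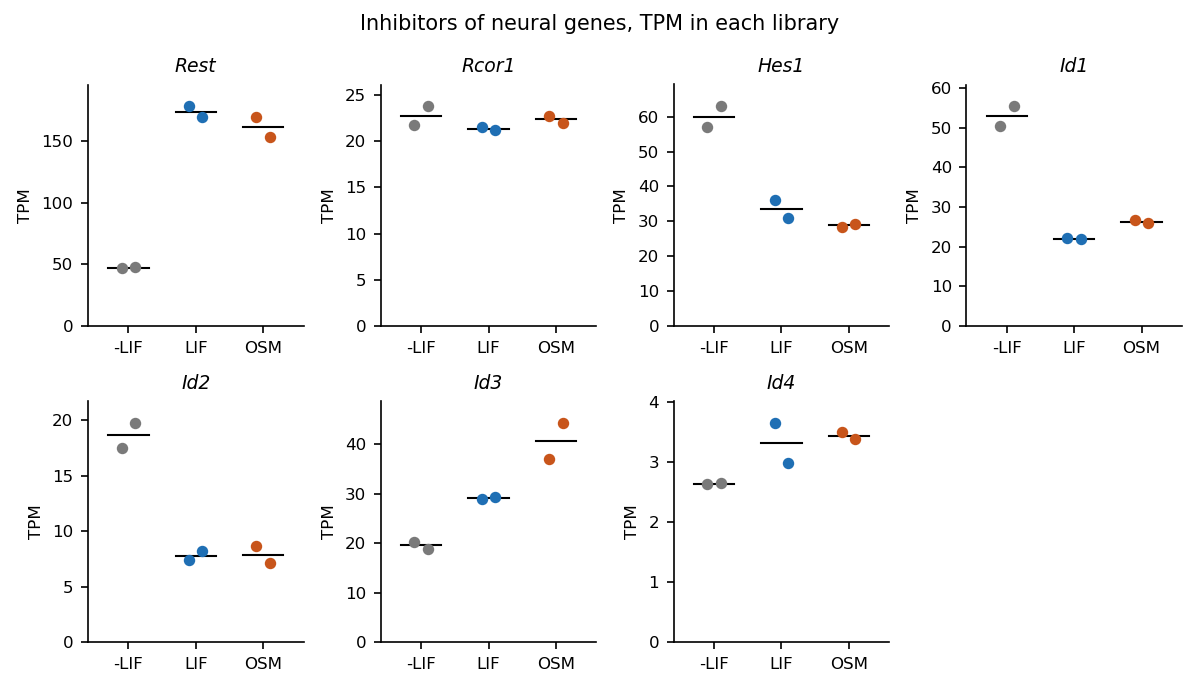
TPM of the 7 inhibitors of neural genes, with each library as a point, the mean of the 2 libraries as a black line and a vertical axis from 0 in each panel. Rest is higher in the 4 cytokine libraries, at 153.8 to 178.5 TPM, than in the -LIF-ESCs, and Id1, Id2 and Hes1 are highest in the -LIF-ESCs.

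Markers of other cell types moved with the media, and their part in the results above was not tested. The 10 pluripotency markers were at or above 1 TPM in every group, and their summed TPM was 2237 to 2252 without cytokine, 4039 to 4172 with LIF and 3761 to 3808 with OSM, with 6 called higher with LIF and 5 with OSM. Nanog, a core pluripotency factor, went the other way, with log2 fold changes of -0.58 with LIF and -0.73 with OSM (limma adjusted p = 0.000144 and 6.37e-05). It stood at 435.9 and 430.8 TPM without cytokine and at 251.7 to 290.5 TPM with it. The paper reports the opposite direction for Nanog in its RNA-seq, and less Nanog protein without cytokine. The reason for the difference in RNA was not tested. Of the 13 fibroblast markers, 10 were called higher with either cytokine, with none at 0 in any group, and their summed TPM was 126.5 to 134.6, 511.1 to 512.8 and 712.8 to 719.4 in the same order. Between OSM and LIF, 6 of these 13 were higher by the adjusted p, the direction of Nes and Vim. Against -LIF-ESCs the 10 called moved with Snai2 and Twist1 and opposite to Nes, but Col5a1 and Mmp2, of the 6, had the order of Nes. Col5a1 had log2 fold changes of -0.82 with LIF and -0.24 with OSM, and Mmp2 of -0.75 and -0.31. The 7 epithelial and surface ectoderm markers had a summed TPM of 2473 to 2476 without cytokine, against 470.9 to 494.0 with LIF and 454.7 to 479.6 with OSM, and 4 were called lower with either cytokine. Of this list, Krt5 and Trp63 were at 0 in LIF-ESCs and OSM-ESCs and near 0 in -LIF-ESCs, at 0.241 and 0.0489 TPM for Krt5 and 0.137 and 0.102 TPM for Trp63. Krt14 stood at 4.57 and 4.10 TPM without cytokine and at 0.0563 to 0.141 TPM with it, and was called lower with either cytokine. Skeletal muscle markers summed to 36.3 to 37.7 TPM in -LIF-ESCs, where Pax3 was highest, and to 9.46 to 11.1 TPM with cytokine. Myod1 was at 0 with cytokine, and 3 markers were called lower with LIF and 2 with OSM. Of the sum in -LIF-ESCs, Des made up 21.2 and 20.8 TPM and Actc1 12.8 and 12.3 TPM. Myod1 and Myog stayed under 1 TPM in -LIF-ESCs, at 0.142 and 0.0577 TPM and at 0.354 and 0.288 TPM. Somite and dermomyotome markers summed to 53.4 to 55.5 TPM, 105.8 to 110.9 TPM and 93.0 to 98.3 TPM, the opposite order to Pax3, with 2 called higher with LIF and 1 with OSM. Endothelial markers summed to 30.0 to 30.4 TPM, 41.7 to 42.3 TPM and 34.2 to 36.0 TPM in the same order, with 0 called by limma. Pecam1 made up most of these sums, at 25.8 and 25.9 TPM, 37.9 and 37.9 TPM, and 31.9 and 30.3 TPM. Cdh5 and Kdr stayed under 1 TPM in every library.

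The genes most like each tested member were found by the distance between profiles of log2(TPM + 1) over the 6 libraries, each centred on its own mean, so that 0 is an identical shape. For Sox1 these were Tbx3 (distance 0.0971), Eed (0.116) and Ogt (0.128). For Pax6 they were Zhx1 (0.0880), Bcl6 (0.113) and Cpeb3 (0.119), and for Tubb3 they were Parp11 (0.0473), Ginm1 (0.0536) and Stub1 (0.0539). For Sox21 the nearest profiles were farther off, at 0.222 for Slc7a3, 0.267 for Enox1 and 0.275 for Arid5b. For Nes they were Ifi35 (0.0896), Ptpn14 (0.0928) and Dmgdh (0.143). Ifi35 had mean TPM of 39.2 without cytokine, 14.9 with LIF and 21.0 with OSM, the same order as Nes. None of these 15 genes belongs to the neural lists.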

How the data were processed

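RNA-seq of mESCs at passage 10 gave 6 libraries, 2 per medium. By the paper's methods and the submitters' processing notes, which name Trimmomatic, HISAT2, featureCounts and mm10, the authors aligned the reads, counted them per gene and deposited 1 table of TPM. Tool versions, the annotation and the strand setting are not given in the sources used here. The study tested read counts, which were not used here. Instead, log2(TPM + 1) was fitted by limma (version 3.58.1, R 4.3.3, lmFit and eBayes with trend), and p-values were adjusted by Benjamini-Hochberg. A filter kept 18556 genes that reached 1 TPM in 2 or more libraries. The pseudocount of 1 understates changes of low genes. The 3 groups shared 1 estimate of the spread (3 residual degrees of freedom, 5.3 with the prior). The call limits (adjusted p 0.05, log2 fold change 1 in either direction) are those of the study. P-values measure only the spread between the 2 libraries of a group. The paper calls these biological replicates, but what was replicated is not given, so the spread may be technical.

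Exon lengths and positions came from GENCODE M21 (GRCm38), in which 28405 symbols (99.4%) matched once. Dividing each TPM by the value of 1 read for that length and library gave reads, and 95.4% of values were whole within 0.02 of a read. Promoter windows came from RefSeq (GRCm38.p6). The script for the fit was tested on simulated data. Members and lists were chosen with earlier results of these data known. Named were all members, all inhibitors, up to 3 called genes at either end of each neural list by log2 fold change in each comparison against -LIF, and the 3 genes most like each member. Genes named for their level (Hes5, Snap25, Rbfox3, Dclk2, Map2, Syn1, Sox10, Gfap), Sox3, Vim, the marker genes and the overlapping gene models were chosen after values were seen. Alternatives varied the pseudocount, filter, trend, groups fitted, replicate block, scaling, fold limit, tool and libraries.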

Additional observations from a re-analysis of the deposited data

Results flagged for a closer look

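Nes was singled out because its response to LIF and its response to OSM differed in a direct test. Against -LIF-ESCs the log2 fold change was -1.26 with LIF and -0.84 with OSM, and OSM-ESCs exceeded LIF-ESCs by 0.41 (limma, adjusted p = 0.0492), with both OSM-ESC libraries above both LIF-ESC libraries. The adjusted p ran from 2.89e-05 to 0.267 over 15 alternatives, while the difference itself stayed between 0.38 and 0.44. Of the 13 fibroblast markers, 6 were higher in OSM-ESCs by the adjusted p. Their part in the Nes difference was not tested.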

How the results depend on the processing

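For the members in each comparison, 226 values under alternatives kept their direction and their side of the threshold, 7 passed a threshold that they had missed and 1 changed sign. The count of members called with LIF went from 4 to 2 with a filter of 5 TPM and to 5 without a fold limit. With OSM it went from 3 to 5 without a fold limit, to 1 with a filter of 5 TPM and to 4 with rescaling or with voom on recovered reads. With voom on recovered reads and no filter, an alternative chosen after seeing the data, it was 5 with either cytokine. Between OSM and LIF it went from 0 to 1 without a fold limit. The count of other neural genes called went from 26 to 46 without a fold limit with either cytokine, and from 0 to 1 between OSM and LIF. A filter of 5 TPM gave 18 with LIF and 17 with OSM, and a pseudocount of 0.1 gave 32 and 31. Voom on recovered reads gave 31 and 29, and rescaling gave 27 with either cytokine. A stricter filter leaves fewer genes to test, and dropping the fold limit adds calls by construction.

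Leaving out each library in turn, with the lone library assumed to vary like the other groups, gave 4 members with LIF, 3 with OSM and 0 between them, and 24 to 27, 22 to 27 and 0 other neural genes. The difference of Pax6 between OSM and LIF ran from -0.065 without OSM-ESC replicate 1 to 0.20, and the cause was not tested. For Nes between OSM and LIF, the adjusted p was 0.104 to 0.267 with each library left out in turn. With the replicate number as a block, 4, 3 and 0 members and 26, 26 and 0 other neural genes were called, so no count changed, while the adjusted p of Nes between OSM and LIF was 0.148. The numbers were not taken as pairs, since the correlations of deviations between groups were -0.0433, -0.0234 and 0.0265 over only 2 numbers.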
